A study of Mus musculus with 8 samples.

Results

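The chymotrypsin and pancreatic elastase genes *Ctrb1*, *Ctrc*, *Ctrl*, *Cela1*, *Cela2a*, *Cela3a*, and *Cela3b* were examined in RNA-Seq of mouse pancreas. They are 7 of the 48709 genes listed in each library and are defined by gene symbol. RNA was taken from 8-week-old male mice in 4 groups of 2 libraries each. WT mice received saline or POA (palmitoleic acid) and ethanol, a model of alcohol-related severe acute pancreatitis called FAEE-SAP, and cKO mice, which are *Pfkfb3* fl/fl; *Pdx1*-Cre, received the same 2 treatments. Tissue was taken at 24 hours. *Pfkfb3* encodes an activator of glycolysis, and the *Pdx1* promoter expresses Cre in the pancreatic lineage, so acinar, duct, and islet cells can all carry the deletion. The methods state that WT mice were purchased, and they name neither Cre-only nor floxed mice without Cre as controls, so the Cre transgene and the origin of the mice cannot be told apart from the loss of *Pfkfb3*. No label says that libraries came from separate mice, so *P* values measure the spread between these libraries. In whole tissue, fewer acinar cells and less RNA per acinar cell cannot be told apart.

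Chymotrypsins and pancreatic elastases are serine proteases of one fold. Acinar cells make them as inactive zymogens, pack them in granules, and secrete them into the duodenum, where trypsin activates them. Chymotrypsins cut after large hydrophobic residues and can also degrade trypsinogen, whereas elastases cut after small or medium-sized aliphatic residues. Early activation of zymogens inside the acinar cell is a feature of acute pancreatitis. The genes are driven by the acinar transcription complex PTF1 (*Ptf1a* with *Rbpjl*), which binds an E-box together with a TC-box, and by partners such as *Nr5a2*, *Gata4*, and *Bhlha15* (Mist1).

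All 7 genes lie on the minus strand in GRCm38 and are annotated as protein coding in GENCODE vM21. *Cela3a* (chr4:137401554-137409791) and *Cela3b* (chr4:137420999-137430540) are neighbors, as are *Cela2a* (chr4:141814962-141826160) and *Ctrc* (chr4:141814962-141846359), whose annotated spans overlap. *Ctrl* (chr8:105932003-105933862) and *Ctrb1* (chr8:111686519-111691010) share chromosome 8, and *Cela1* (chr15:100674421-100687921) stands alone. RefSeq lists *Ctrc* of this assembly as a transcribed pseudogene. In the GENCODE models, 305 of the 1428 exonic bases of *Ctrc* (21.4%) are also exonic in *Cela2a* on the same strand, through 1 *Ctrc* transcript annotated as subject to nonsense-mediated decay. *Ctrc* also overlaps the antisense gene *Ctrcos*, and both *Ctrc* and *Cela2a* overlap *Casp9* on the opposite strand. The library kit is directional, but whether counting used the strand is not given in the sources used here.

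The sequence upstream of the gene start is shown where it carries a match to the known acinar motifs. RefSeq gave the upstream sequence of 6 genes (GRCm38.p6), and *Ctrc* had no entry. The start used is the RefSeq start. For *Cela1* (chr15:100687920), *Cela2a* (chr4:141826005), and *Cela3b* (chr4:137430520) it lies inside the GENCODE span given above. Searched on both strands of the 250 bases before the start, the E-box CANNTG was present in 6 of 6 genes and in 66.1% of 27018 promoters, and the TC-box TTTCCC in 4 of 6 genes and in 21.9% of promoters. An E-box and a TC-box without overlap and with starts at most 25 bases apart were found in 2 genes, *Ctrb1* and *Cela1*, and in 3.64% of promoters. In both, 4 bases separate the 2 motifs. These stretches, with the E-box and the TC-box in capitals, are at chr8:111691192-111691223 and chr15:100688006-100688037 (minus strand) and read 5′ to 3′:
Ctrb1: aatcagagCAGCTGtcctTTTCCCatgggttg
Cela1: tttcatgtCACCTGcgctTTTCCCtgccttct

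The letters GATAAG, the core bound by GATA factors, were in 5 of 6 genes and in 6.60% of promoters. *Cela3a* and *Cela3b*, whose upstream windows are 92.4% identical, hold it on the opposite strand 205 and 218 bases before the start. Their matches are therefore not independent. This motif was picked after the sequences had been read. In *Cela1* it starts 38 bases before the RefSeq start (stretch at chr15:100687933-100687978). In *Cela2a* it starts 42 bases before the RefSeq start (chr4:141826022-141826067), which is inside the GENCODE span of that gene. In each case it is just before the TATA-like letters. *Ctrl* held no GATAAG and no TTTCCC. A match is a string of letters and not a shown binding site. With GATAAG in capitals, these stretches read:
Cela1: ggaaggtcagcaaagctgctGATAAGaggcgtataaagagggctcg
Cela2a: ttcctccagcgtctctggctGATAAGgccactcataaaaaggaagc

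*Cela3a* and *Cela3b* are shown because their sequences are close while their levels are far apart. Of the 237 upstream positions that aligned, 92.4% were identical. The 2 windows are chr4:137409792-137410041 for *Cela3a* and chr4:137430521-137430770 for *Cela3b*, both on the minus strand, with the 31 bases of each that differ or have no partner in capitals:
Cela3a: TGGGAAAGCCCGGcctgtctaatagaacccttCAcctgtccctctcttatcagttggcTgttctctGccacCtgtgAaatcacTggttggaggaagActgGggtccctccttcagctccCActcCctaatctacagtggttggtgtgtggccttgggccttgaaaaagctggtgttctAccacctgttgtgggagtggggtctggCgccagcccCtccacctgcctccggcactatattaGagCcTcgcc
Cela3b: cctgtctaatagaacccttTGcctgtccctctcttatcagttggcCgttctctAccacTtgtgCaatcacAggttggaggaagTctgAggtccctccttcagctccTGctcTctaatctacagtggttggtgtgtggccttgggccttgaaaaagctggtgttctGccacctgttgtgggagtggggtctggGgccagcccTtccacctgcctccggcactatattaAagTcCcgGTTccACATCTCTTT

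Values are RPKM, reads per kilobase of exon scaled to the depth of the library. Library totals recovered from the low values were 22.9 to 37.7 M reads, so counting error is small for the 6 genes other than *Cela3a*. The level of the median gene as deposited moved with treatment, and the cause was not tested. Levels were therefore compared both as deposited and after scaling by the median of ratios, which sets the median gene level between libraries. Library values were divided by factors of 0.728 and 0.866 (WT saline), 2.02 and 1.94 (WT FAEE-SAP), 0.621 and 0.665 (cKO saline), or 1.05 and 0.975 (cKO FAEE-SAP). As deposited, the median of all tested genes moved by 1.24 on the log2 scale with FAEE-SAP in WT and by 0.57 in cKO. After scaling it moved by 0.02 and -0.01. A gene was called at a Benjamini-Hochberg adjusted *P* under 0.05 (limma) together with a 2-fold or larger change. The log2 of a fold change is given as the log2 change.

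The 7 genes together took 21.1% to 25.4% of the summed RPKM of each library. *Ctrb1*, chymotrypsinogen B, was highest, with a median of 59635 RPKM over the 8 libraries as deposited (50322 to 84249). *Cela1* followed with a median of 28659 RPKM (25561 to 31778), and then *Cela2a* with 24598 RPKM (13204 to 28104). *Ctrl*, a chymotrypsin-like protease (median 8680 RPKM), and *Cela3b* (median 7536 RPKM) changed order with treatment, with *Ctrl* higher in 4 of 8 libraries. *Ctrl* was higher in all 4 saline libraries and lower in all 4 FAEE-SAP libraries, by little in cKO FAEE-SAP replicate 1 (7899 against 7918 RPKM). *Ctrc* was far lower, at a median of 62.7 RPKM. *Cela3a* was lowest, at 0.506 to 1.60 RPKM. The order of *Ctrb1* and *Cela1* depends on the length used, since with the length of the main transcript in place of all exons *Ctrb1* exceeded *Cela1* in 4 of 8 libraries. With that length *Cela3b* exceeded *Ctrl* in 6 of 8.

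*Cela3a* was listed in every library but rested on 14 to 58 reads, against 214400 to 443791 reads for *Cela3b*. That is 3.50 to 13.1 *Cela3a* reads for every 100000 reads of *Cela3b*. The main transcripts of the pair are 94.5% identical over 916 aligned bases, and 291 of the 909 windows of 50 bases in *Cela3a* also occur in *Cela3b*. How reads that fit both genes were assigned is not given in the sources used here, so the *Cela3a* values are uncertain. No 50-base window was shared between the main transcripts of any other pair of the 7 genes.

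With FAEE-SAP in WT mice, all 7 genes fell after scaling and *Ctrc*, *Ctrl*, and *Cela2a* fell most. As deposited, *Ctrc* and *Ctrl* passed both thresholds, the log2 changes of all 7 were also below 0, and under quantile normalization *Ctrb1* was at 0 while *Cela1* and *Cela3b* were above 0. After scaling, all 7 passed as lower, against 3.86% of the 10894 genes tested, with a median log2 change of -2.04 for the 7 and 0.02 for all genes. As deposited, 2 of 7 were called lower, against 0.789% of genes, with a median of -0.87 for the 7 and 1.24 for all genes. With no filter on low values, 2 of 7 were called after scaling, and the share of all genes called in that fit was not computed.

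**Figure D1:**
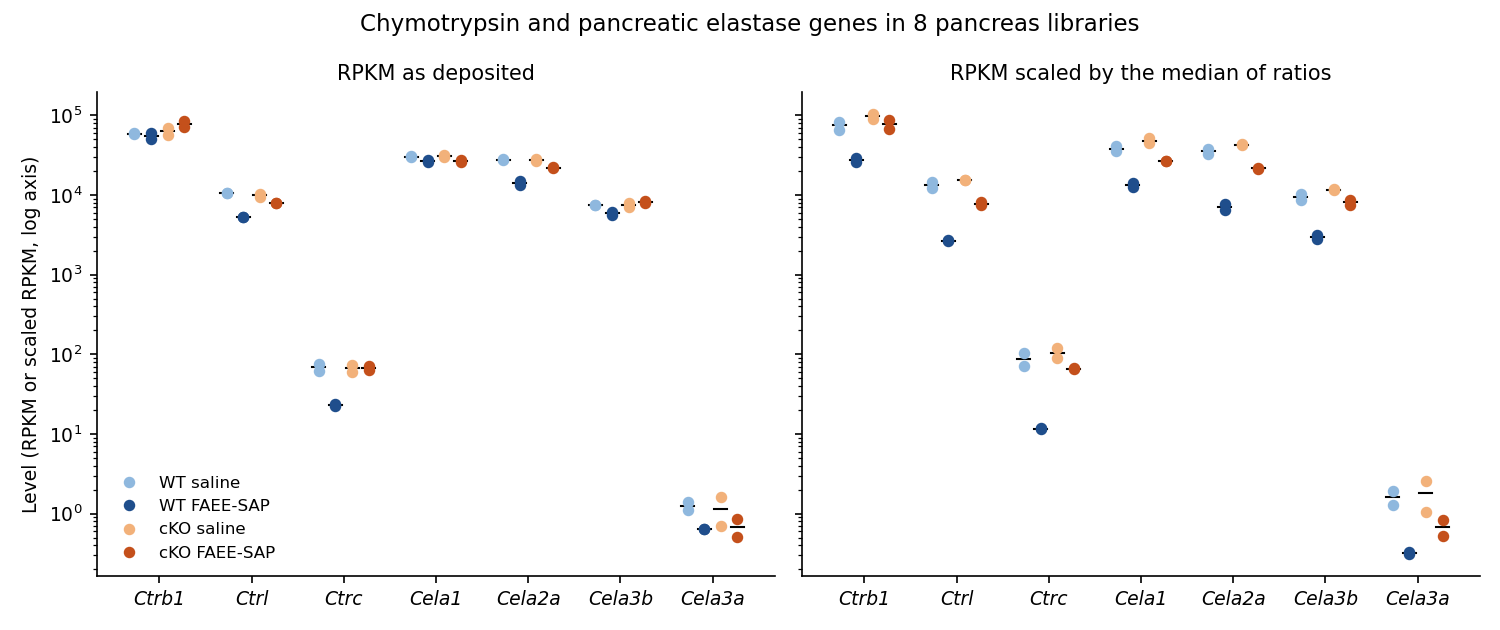
Level of each of the 7 genes in each of the 8 libraries (points, with the mean of 2 libraries as a bar) on a log axis, as deposited in RPKM (left) and after scaling by the median of ratios (right). After scaling the WT FAEE-SAP libraries are lowest for every gene, whereas as deposited *Ctrb1* of WT overlaps between the treatments.

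*Ctrl* was 10484 and 10552 RPKM with saline and 5291 and 5217 RPKM with FAEE-SAP in WT as deposited. After scaling these became 14403 and 12184 against 2614 and 2696. The 2 groups did not overlap on either scale. The scaled log2 change was -2.33 (SE 0.15, adjusted *P* = 0.00257, limma), or 5.01 times lower.

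*Cela2a*, elastase 2A, was 27547 and 28104 RPKM with saline and 13204 and 14861 RPKM with FAEE-SAP in WT as deposited. After scaling it was 37842 and 32452 against 6523 and 7679, a log2 change of -2.31 (SE 0.16, adjusted *P* = 0.00288, limma). As deposited its log2 change of -0.99 had an adjusted *P* of 0.00161 and was just short of 2-fold. *Cela2a* and *Ctrl* moved in parallel, and the ratio of their RPKM was 2.50 to 2.85 in all 8 libraries.

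*Ctrc* was 75.6 and 62.2 RPKM with saline and 23.9 and 22.2 RPKM with FAEE-SAP in WT as deposited. Its scaled log2 change was the largest of the 7, at -2.89 (SE 0.22, adjusted *P* = 0.00345, limma), and its log2 change as deposited was -1.57 (adjusted *P* = 0.00162). The *Cela2a* to *Ctrc* ratio went from 364 and 452 with saline to 552 and 669 with FAEE-SAP in WT. In cKO it was 365 and 468 with saline, then 317 and 340 with FAEE-SAP, so *Ctrc* was not a fixed share of *Cela2a* despite the exons they share.

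The other chymotrypsin and elastase genes fell less in WT. *Ctrb1* was 60215 and 57332 RPKM with saline and 59055 and 50322 RPKM with FAEE-SAP as deposited, and the groups overlapped. After scaling it was 82719 and 66202 against 29176 and 26003, a log2 change of -1.43 (SE 0.16, adjusted *P* = 0.0107, limma).

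*Cela1* was 29785 and 30403 RPKM with saline and 25561 and 27466 RPKM with FAEE-SAP as deposited, without overlap, and its log2 change of -0.18 was not called (adjusted *P* = 0.176, limma). After scaling it was 40917 and 35107 against 12628 and 14193, a log2 change of -1.51 (adjusted *P* = 0.00685). *Cela3b* was 7577 and 7495 RPKM with saline and 5617 and 6103 RPKM with FAEE-SAP as deposited. Both were lower with FAEE-SAP, and the scaled log2 change of *Cela3b* was -1.69 (adjusted *P* = 0.00576, limma).

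*Cela3a* was 1.40 and 1.11 RPKM with saline and 0.637 and 0.638 RPKM with FAEE-SAP as deposited. Its scaled log2 change was -2.04 (SE 0.28, adjusted *P* = 0.0174, limma), on the log2(value + 0.1) scale, which understates changes of low genes. The calls for *Cela3a* and *Ctrb1* were lost in some fits that left out 1 library. Such a fit leaves 1 library in a group, so the spread comes from the other group alone. The loss therefore does not show whether the change itself shrank.

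In cKO mice none of the 7 genes was called with FAEE-SAP on either scale. Of the 9423 genes tested, 5 were called after scaling (0.0531%), all of them higher, and 0.159% as deposited, and 888 had an unadjusted *P* under 0.05 after scaling, so few genes of any kind passed in this comparison. The scaled log2 changes of the 7 genes were all below 0, with a median of -0.81 against -0.01 for all genes, and 5 of the 7 had an unadjusted *P* under 0.05. As deposited, *Ctrb1*, *Ctrc*, and *Cela3b* were above 0 and the other 4 below 0.

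*Cela2a* in cKO was 26890 and 27956 RPKM with saline and 22306 and 21488 RPKM with FAEE-SAP as deposited, without overlap. After scaling, 43308 and 42032 became 21315 and 22030, a log2 change of -0.95 (95% CI -1.21 to -0.69, adjusted *P* = 0.151, limma). *Ctrl* was 9461 and 10325 RPKM with saline and 7899 and 7849 RPKM with FAEE-SAP, and its scaled log2 change was also -0.95 (95% CI -1.24 to -0.67, adjusted *P* = 0.161). These intervals exclude 0 before adjustment, and neither gene reached 2-fold.

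*Ctrb1* in cKO was 56471 and 68955 RPKM with saline and 70994 and 84249 RPKM with FAEE-SAP as deposited, so both FAEE-SAP libraries were higher. After scaling both were lower, at 67839 and 86373 against 90951 and 103676, and the log2 change was -0.31 (95% CI -0.69 to 0.06, adjusted *P* = 0.564, limma). Its direction in cKO therefore depends on the scale.

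*Ctrc* in cKO was 73.6 and 59.7 RPKM with saline and 70.4 and 63.2 RPKM with FAEE-SAP as deposited, with overlap. Its scaled log2 change was -0.61 (95% CI -1.15 to -0.08, adjusted *P* = 0.490, limma). *Cela1* was 31778 and 29584 RPKM with saline and 27733 and 26159 RPKM with FAEE-SAP, and its scaled log2 change was -0.81 (95% CI -1.12 to -0.50, adjusted *P* = 0.231). *Cela3b* overlapped between treatments as deposited, at 7061 and 7990 against 7918 and 8334 RPKM, and its scaled log2 change was -0.51 (adjusted *P* = 0.398).

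*Cela3a* in cKO had the widest spread. It was 1.60 and 0.698 RPKM with saline and 0.870 and 0.506 RPKM with FAEE-SAP, from 58, 21, 23, and 15 reads. The scaled log2 change was -1.16 (95% CI -2.39 to 0.08, adjusted *P* = 0.541, limma).

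Between genotypes with saline, no member was called on either scale, and 0% of the 8715 genes tested were called after scaling (187 had an unadjusted *P* under 0.05), against 0.0229% as deposited. The scaled log2 changes of cKO against WT ran from 0.05 for *Cela3a* to 0.36 for *Ctrb1*, with a median of 0.26. As deposited the median was -0.02, with 5 of the 7 below 0. The 95% CI of the scaled change was -0.04 to 0.56 for *Cela2a* and -0.14 to 0.52 for *Ctrl*, so a difference of up to about that size is not excluded.

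With FAEE-SAP, 5 of the 7 genes were called higher in cKO than in WT after scaling, against 0.863% of the 11008 genes tested. The median log2 change was 1.46 for the 7 and -0.01 for all genes. As deposited only *Ctrc* was called (1 of 7, against 0.663% of genes called higher), the 7 genes were all above 0 with a median of 0.50, and the median of all genes was -0.91. Under quantile normalization *Ctrb1* was at 0 and *Ctrl*, *Cela1*, and *Cela3b* were below 0.

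*Ctrc* differed most. Its scaled level was 11.8 and 11.5 in WT against 67.3 and 64.8 in cKO, a log2 change of 2.49 (SE 0.17, adjusted *P* = 0.0140, limma), or 5.60 times higher. *Cela2a* was 6523 and 7679 in WT against 21315 and 22030 in cKO after scaling, a log2 change of 1.60 (SE 0.15, adjusted *P* = 0.0180). *Ctrl* was 2614 and 2696 in WT against 7548 and 8047 in cKO, a log2 change of 1.54 (SE 0.14, adjusted *P* = 0.0172). In these 3 genes the genotypes were apart by more than the spread of either group, as they were in the deposited values. Separation was not limited to them, since the genotypes of *Ctrb1*, *Cela1*, *Cela3a*, and *Cela3b* did not overlap after scaling either. As deposited, the genotypes of *Ctrb1* and *Cela3b* did not overlap, whereas those of *Cela1* and *Cela3a* did. The share of all genes that separate in this way was not computed.

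*Ctrb1* was 29176 and 26003 in WT against 67839 and 86373 in cKO with FAEE-SAP after scaling, a log2 change of 1.46 (SE 0.17, adjusted *P* = 0.0274, limma). *Cela3b* was 2775 and 3154 in WT against 7566 and 8544 in cKO, with a log2 change of 1.43 (adjusted *P* = 0.0244). *Cela1* passed the adjusted *P* but not 2-fold, with a log2 change of 0.98 (adjusted *P* = 0.0443), and as deposited its genotypes overlapped. *Cela3a* had a log2 change of 0.88 (adjusted *P* = 0.213).

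With no filter on low values the count of 5 fell to 0, and without the intensity trend in limma it fell to 1. The count of 5 also fell in some fits that left out 1 library. Such a fit leaves 1 library in a group, so the spread comes from the other group alone. The *Ctrc* log2 change was 2.48 without WT FAEE-SAP replicate 1 and 2.45 without replicate 2.

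**Figure D2:**
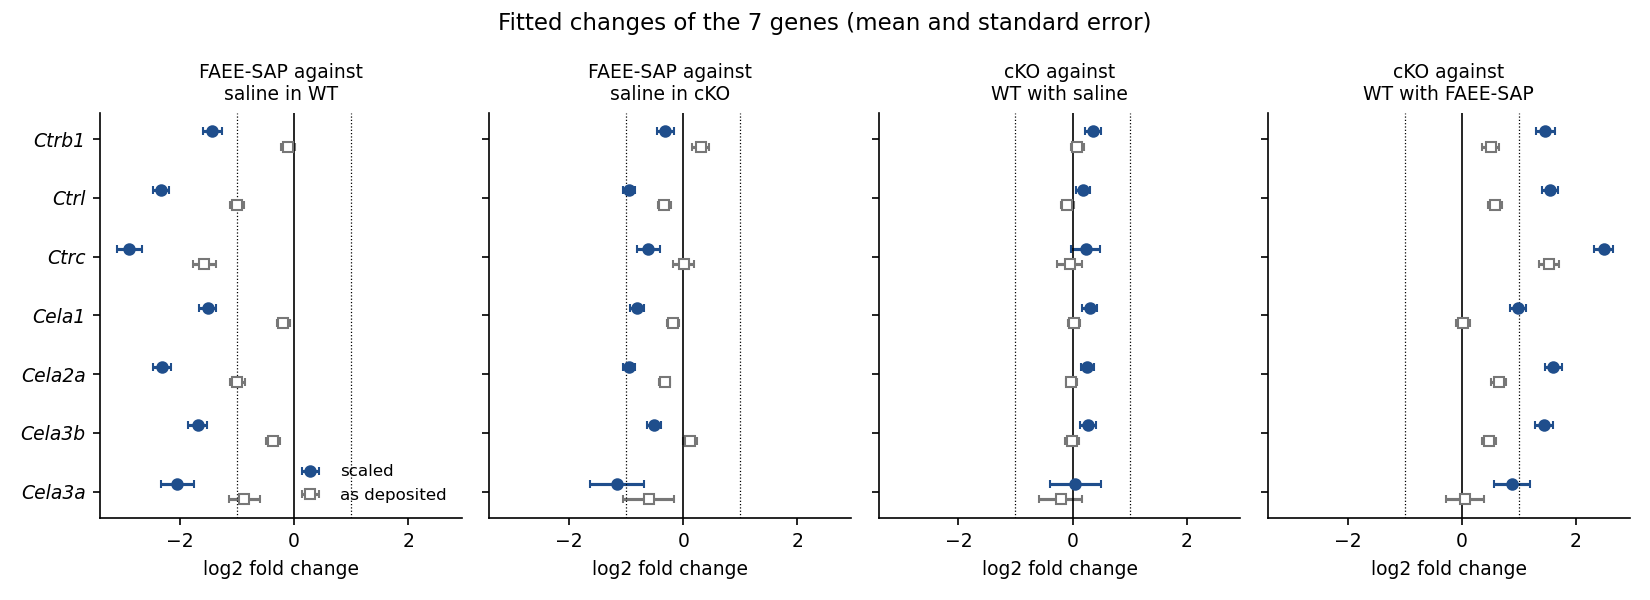
Log2 change of each gene (x axis) in 4 comparisons, with the standard error as a bar, after scaling (filled circles) and as deposited (open squares). Dotted lines mark 2-fold. All 7 scaled changes in WT lie beyond the lower dotted line, and those with saline between genotypes lie near 0.

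The difference between the genotypes in their change with FAEE-SAP was tested as an interaction over all 8 libraries. After scaling no member was called (8 of 11133 genes, 0.0719%, were called in all). An unadjusted *P* under 0.05 (limma) was found for 6 of the 7 and for 1398 of the 11133 genes. All 7 were above 0, with a median of 1.14 on the log2 scale against 0.02 for all genes. *Ctrc* had an interaction of 2.24 (SE 0.31, adjusted *P* = 0.0740, limma), *Ctrl* of 1.34 (SE 0.19, adjusted *P* = 0.0740), and *Cela2a* of 1.33 (SE 0.20, adjusted *P* = 0.0806). As deposited, *Ctrc* was called at 1.58 (adjusted *P* = 0.0430), against 0.189% of genes called in that direction. The call and the lack of it thus lie close to the threshold. With a minimum of 2 RPKM 4 of the 6 genes tested were called, but the share of all genes called at that minimum was not computed. Directions also depended on the scale, since *Cela1* was at -0.0033 as deposited, and under quantile normalization *Ctrl* was at -0.14, *Cela1* at -0.22, and *Cela3b* at -0.0657.

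Within the family, composition can be compared without any scaling, since a common factor cancels. The share of *Ctrb1* in the summed RPKM of the 7 genes was 44.4% and 42.8% in WT saline and 42.9% and 47.6% in cKO saline. With FAEE-SAP it reached 54.3% and 48.4% (WT) and 51.9% and 56.9% (cKO). All 4 FAEE-SAP libraries were thus above all 4 saline libraries (two-sided exact permutation *P* = 0.0286, n = 4 against 4, the smallest that this test gives, and 0.0762 after Benjamini-Hochberg adjustment over 8 measures). The test exchanges treatment labels over both genotypes together and so takes no account of genotype.

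*Ctrl* and *Cela2a* had smaller shares with FAEE-SAP in every library. *Ctrl* took 7.13% to 7.88% of the family with saline and 4.87% to 5.77% with FAEE-SAP. *Cela2a* took 19.3% to 21.0% with saline and 12.1% to 16.3% with FAEE-SAP. Neither range overlapped between treatments, in either genotype (exact permutation *P* = 0.0286 for each, adjusted 0.0762), so these shifts do not pass 0.05 once adjusted. A share of the sum also depends on *Ctrb1*, which made up 42.8% to 56.9% of it. Relative to the geometric mean of the 7 genes, which weights them equally and so carries the spread of *Cela3a*, the log2 difference with FAEE-SAP was smaller, at -0.22 for *Ctrl*, whose groups then overlapped in cKO, and at -0.21 for *Cela2a*, whose groups did not. That of *Ctrb1* was larger, at 0.55, compared with 0.25 for its share.

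The log2 difference in the share of *Cela2a* was -0.65 in WT and -0.37 in cKO, and that of *Ctrl* was -0.66 in WT and -0.37 in cKO. The share of *Ctrb1* differed by 0.23 in WT and 0.27 in cKO. *Cela3b* held 5.16% to 5.87% of the family in all 8 libraries (exact permutation *P* = 0.600), whereas relative to the geometric mean it was higher in all 4 FAEE-SAP libraries (1.93 to 2.15 on the log2 scale) than in the 4 saline libraries (1.60 to 1.91). The share of *Cela1* went from 22.0% and 22.7% to 23.5% and 26.4% in WT and from 24.1% and 20.4% to 20.3% and 17.7% in cKO (*P* = 0.829 by the exact permutation test over both genotypes), and relative to the geometric mean its log2 difference was 0.56 in WT and -0.03 in cKO. *Ctrc* held 0.0557% and 0.0464% of the family with saline and 0.0220% and 0.0214% with FAEE-SAP in WT, compared with 0.0559% and 0.0412% (saline) and 0.0514% and 0.0427% (FAEE-SAP) in cKO. Its share was thus lower in the WT FAEE-SAP libraries than in the other 6 (exact permutation *P* = 0.143 for treatment).

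The chymotrypsin to elastase ratio, the summed RPKM of *Ctrb1*, *Ctrc*, and *Ctrl* over that of the 4 *Cela* genes, was 1.004 to 1.21 with saline and 1.15 to 1.65 with FAEE-SAP. The log2 difference was 0.36 (exact permutation *P* = 0.0571, n = 4 against 4, adjusted 0.114). The treatments overlapped over both genotypes together, and not within WT (0.28) or within cKO (0.44). The sums follow *Ctrb1*. With geometric means in place of sums the ratio went from 2.11 and 2.05 to 1.87 and 1.60 in WT and from 1.93 and 2.38 to 2.37 and 2.80 in cKO, so the log2 differences had opposite signs (-0.27 in WT and 0.26 in cKO, where the groups overlapped) and averaged -0.0017.

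**Figure D3:**
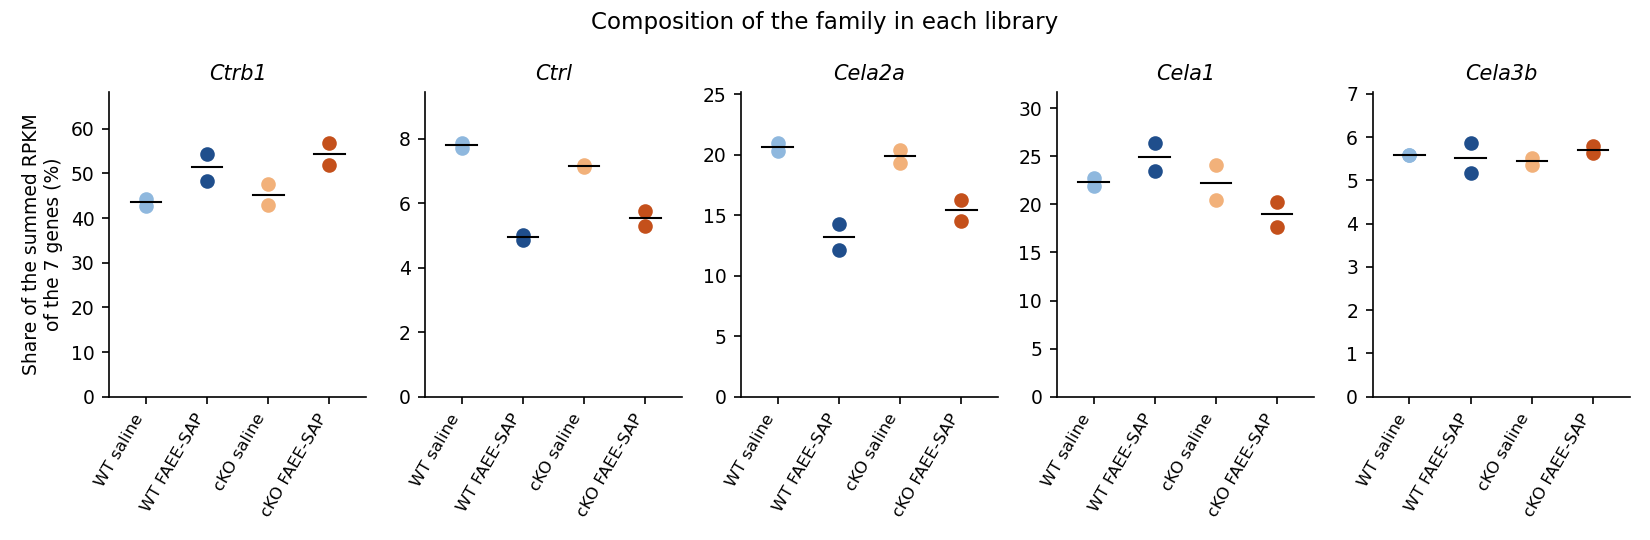
Share of each of 5 genes in the summed RPKM of the 7 genes (percent, y axes from 0) in each library (points), with the mean of each group as a bar. *Ctrb1* is higher and *Ctrl* and *Cela2a* are lower in all 4 FAEE-SAP libraries than in the 4 saline libraries, and *Cela3b* stays between 5.16% and 5.87% of the sum, though not level relative to the geometric mean.

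Other acinar proteases moved with the family. Of 9 trypsinogen and carboxypeptidase genes, 9 passed as lower in WT mice given FAEE-SAP after scaling (median log2 change -1.59, against 3.86% of all genes called lower), 0 in cKO (median -0.84, against 0.0531% called), and 8 were called higher in cKO than in WT with FAEE-SAP (median 1.45, against 0.863%). Among those that fell in WT were *Cpb1* (-2.48) and *Cpa1* (-2.00), which encode carboxypeptidases, and *Try4* (-1.84), which encodes a trypsinogen. As deposited, 2 of the 9 were called lower in WT (against 0.789% of genes), with a median of -0.29, and *Prss3* was above 0, and 0 of the 9 were called higher in cKO than in WT with FAEE-SAP (against 0.663% of genes). The ratio of the summed RPKM of the 7 genes to that of these 9 was 1.04 to 1.23 over the 8 libraries.

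The genes whose pattern over the 8 libraries was most like the mean of the 7 were *Amy2a3*, *Amy2a4*, *Amy2a2*, *Cpa1*, *Amy2a5*, and *Pla2g1b*. The root mean square difference of their centered log2 scaled values from that mean was 0.076 to 0.094, among 4805 genes ranked. The 4 *Amy2a* genes, which encode pancreatic amylase, belong to a family of like copies, so their values are uncertain, and how reads that fit several copies were assigned is not given in the sources used here. Among the members, *Ctrl* and *Cela2a* lay closest to their own mean (0.146 each) and *Ctrc* farthest (0.404).

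Of 10 acinar transcription factor genes, 9 were tested and 4 passed as lower in WT mice given FAEE-SAP after scaling (against 3.86% of all genes), whereas as deposited only 1, *Bhlha15*, was called lower (against 0.789%). *Bhlha15*, which maintains the secretory architecture of acinar cells, had a log2 change of -3.47 (adjusted *P* = 0.00853, limma), *Rbpjl* of -2.13 (adjusted *P* = 0.0355), *Ptf1a* of -1.81 (adjusted *P* = 0.0197), and *Gata4* of -1.48 (adjusted *P* = 0.0442). *Xbp1*, a factor of the unfolded protein response, was called higher, at 1.39 (3.08% of all genes were). None of the 9 was called in cKO, where *Ptf1a* was -1.49 (adjusted *P* = 0.333) and *Bhlha15* -0.40 (adjusted *P* = 0.752).

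In WT, *Bhlha15* went from 28.3 and 29.9 scaled RPKM with saline to 3.81 and 1.71 with FAEE-SAP. In cKO it went from 39.6 and 18.2 to 20.8 and 19.0. It was the only factor of the 9 called higher in cKO than in WT with FAEE-SAP (log2 change 2.91, adjusted *P* = 0.0350, limma). *Ptf1a* went from 10.5 and 14.3 to 4.16 and 2.88 in WT, and from 23.1 and 15.1 to 7.46 and 5.58 in cKO. It was thus lower with FAEE-SAP in each genotype, and its interaction was 0.27 (adjusted *P* = 0.828).

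**Figure D4:**
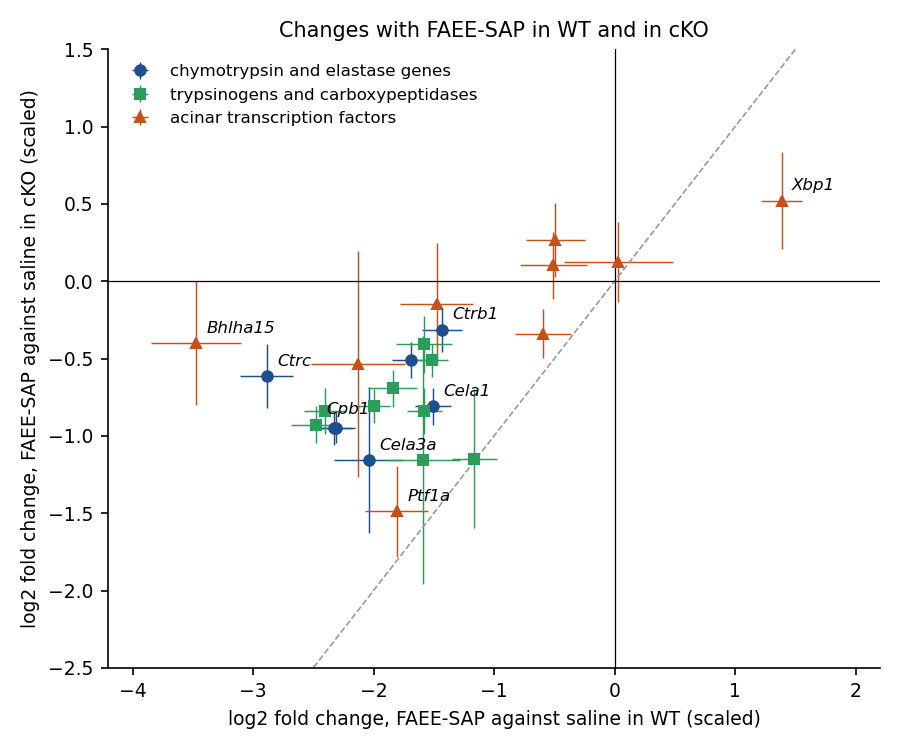
Log2 change with FAEE-SAP against saline after scaling in WT (x axis) and in cKO (y axis) for the 7 chymotrypsin and elastase genes, 9 trypsinogen and carboxypeptidase genes, and 9 acinar transcription factor genes, with standard errors as bars. The dashed line marks equal change. The 7 genes lie above that line, *Ptf1a* (-1.81 in WT, -1.49 in cKO) lies near it, and *Bhlha15* (-3.47 and -0.40) far from it.

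Inhibitors of these proteases were examined with the same fits. Of 12 protease inhibitor genes, 6 were tested in WT, of which FAEE-SAP lowered 2 after scaling (against 3.86% of all genes called lower). *Serpini2*, a pancreatic serpin, had a log2 change of -4.09 and *Spink1*, the pancreatic secretory trypsin inhibitor, of -1.63, and both were called higher in cKO than in WT with FAEE-SAP (3.36 and 1.39, against 0.863% of all genes), though as deposited *Spink1* was not (0.43, adjusted *P* = 0.124, limma). As deposited *Serpini2* was called lower in WT, *Spink1* was not (log2 change -0.30, adjusted *P* = 0.106, limma), and 3 of the 6 were called higher (*Slpi*, *Serpinb1a*, and *Wfdc2*, at 1.65 to 2.36), against 65.9% of all genes tested. Of 3 lysosomal protease genes that act on zymogens, *Ctsl*, cathepsin L, was called higher with FAEE-SAP in WT (1.36, against 3.08% of all genes). *Ctsb* was 0.60 and *Ctsd* was 0.23. As deposited all 3 were called higher (2.69, 1.92, and 1.55), against 65.9% of all genes tested.

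Proteases of blood and mast cells were near 0. None of 9 such genes, which are 8 serine proteases, among them neutrophil elastase (*Elane*) and cathepsin G (*Ctsg*), and a mast cell carboxypeptidase, passed the filter, and their summed scaled level was 0.166 to 1.94 over the 8 libraries. *Elane* and *Mcpt1* were listed at 0 in both WT FAEE-SAP libraries.

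Markers of other cell types were compared in the same groups. The summed scaled level of 8 neutrophil markers went from a range of 1.51 to 2.33 with saline to 54.4 to 59.5 with FAEE-SAP in WT, compared with 1.47 to 3.79 and 13.2 to 20.2 in cKO. In WT, 6 of the 6 tested were called higher after scaling, where 3.08% of all genes were. These 6 passed the filter only through the FAEE-SAP libraries, where they are high, so their count is not set against that share. *Retn*, among the adipocyte markers below, entered in the same way. *Ly6g* was listed at 0 in WT saline, and *Mpo* was listed at 0 in WT FAEE-SAP. The sum of 8 duct markers was 44.7 and 48.8 in WT saline and 87.5 and 92.7 in WT FAEE-SAP, compared with 32.4 and 54.5 (saline) and 72.9 and 73.3 (FAEE-SAP) in cKO. The sum of 8 adipocyte markers went from 34.7 and 64.7 to 81.3 and 112.9 in WT, and from 36.8 and 66.0 to 23.3 and 91.7 in cKO. Of the markers tested in WT after scaling, 1 of 8 macrophage markers (*Cd14*, 3.39), 2 of 6 duct markers, 2 of 7 adipocyte markers (*Fabp4*, 1.21, and *Retn*, 1.56), 0 of 8 lymphoid markers, 0 of 8 fibroblast and stellate markers, and 0 of 6 endothelial markers were called higher (against the same 3.08%), whereas as deposited these counts were 8, 3, 5, 2, 6, and 2, against 65.9% of all genes tested. After scaling, 2 of 7 islet markers, *Gcg* and *Sst*, were called lower (against 3.86% of all genes), whereas as deposited neither was called, 6 of the 7 were above 0, *Gcg* among them (0.31), and *Ppy* was called higher (1.79). The sum of 8 islet markers after scaling was 285 and 340 in WT saline, 182 and 239 in WT FAEE-SAP, 303 and 372 in cKO saline, and 429 and 450 in cKO FAEE-SAP. With FAEE-SAP, 3 of the 7 islet markers tested were called higher in cKO than in WT after scaling, against 0.863% of all genes (*Sst* at 1.80, *Gcg* at 1.68, and *Iapp* at 1.29), whereas as deposited none was called higher and *Ppy* was called lower (-1.34). The part of these cells in the changes of the 7 genes was not tested.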

How the data were processed

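RNA-Seq of pancreas was analyzed in 8 libraries, 2 in each of 4 groups assigned from the labels. The authors deposited RPKM for 48709 genes. The methods and the submitters' processing notes name fastp, CLC Genomics Workbench, and GRCm38 (GRCm38.p6), and how RPKM was computed is not given in the sources used here. Library totals were recovered as the number that makes low RPKM times exonic length whole (84.2% to 85.6% of values under 20 reads, within 0.1 reads), and reads of matched genes summed to 100.3% to 105.7% of them, so reads are approximate and intervals from them cover counting error only.

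Genes with at least 0.5 RPKM in at least 2 libraries of a comparison were scaled by the median of ratios and moved to log2(scaled RPKM + 0.1). limma 3.58.1 (R 4.3.3) fitted them with an intensity trend, and *P* values were adjusted by Benjamini-Hochberg across the whole table. Shares were compared with exact permutation tests, which with 2 against 2 libraries cannot give a *P* under 0.33. The scripts were tested on simulated data. Alternatives were the deposited values, trimmed mean or quantile scaling, filters, pseudocounts, no trend, 1 model of all libraries, replicate number as a block, other thresholds, and each library left out. Upstream and transcript sequences (RefSeq, GENCODE vM21) were compared with Biopython 1.88. Figures were drawn with matplotlib 3.10.9.

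The members and gene lists were chosen with earlier results of these data known. Named genes were the 7 members, up to 4 called genes of a list with the largest change (1 of them is not reported here), and the 6 other genes of at least 1 RPKM in every library most like the members' mean; *Ctsb*, *Ctsd*, *Ptf1a* and *Bhlha15* in cKO, *Prss3*, *Elane*, *Ctsg*, *Mcpt1*, *Ly6g*, *Mpo*, *Slpi*, *Serpinb1a*, *Wfdc2*, and *Ppy* were named after their values were seen.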

Additional observations from a re-analysis of the deposited data

Results flagged for a closer look

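The change with FAEE-SAP differed between genotypes as deposited for *Ctrc* (interaction 1.58 on the log2 scale, adjusted *P* = 0.0430, limma), *Ctrl* (0.67, adjusted *P* = 0.0460), and *Cela2a* (0.67, adjusted *P* = 0.0469). Only the *Ctrc* difference reached 2-fold. *Ctrc* went from 75.6 and 62.2 to 23.9 and 22.2 RPKM in WT and from 73.6 and 59.7 to 70.4 and 63.2 RPKM in cKO. *Ctrl* went from 10484 and 10552 to 5291 and 5217 RPKM in WT and from 9461 and 10325 to 7899 and 7849 RPKM in cKO. After scaling the adjusted *P* was 0.0740, 0.0740, and 0.0806 for the 3 genes.

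*Cela3b* as deposited went in opposite directions in the 2 genotypes. The mean with FAEE-SAP was 0.778 times the saline mean in WT and 1.08 times in cKO. That the directions were opposite was not tested, and the cKO libraries overlapped between treatments for this gene.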

How the results depend on the processing

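Of 527 repeats of the log2 changes of the 7 genes, 446 kept direction and call, 44 lost a call, 10 gained one, and 27 turned. With values as deposited, 2 genes were called in WT with FAEE-SAP, 1 (*Ctrc*) in cKO against WT with FAEE-SAP, and 1 in the interaction of genotype and treatment. The log2 changes that turned were 0.31 for *Ctrb1*, 0.00947 for *Ctrc*, and 0.11 for *Cela3b* with FAEE-SAP in cKO; -0.0484 for *Ctrc*, -0.0898 for *Ctrl*, -0.0212 for *Cela2a*, -0.21 for *Cela3a*, and -0.0048 for *Cela3b* in cKO against WT with saline; and -0.0033 for *Cela1* in the interaction. Under quantile normalization the counts were 2, 1, and 1, and the log2 changes that turned were 0 for *Ctrb1*, 0.0281 for *Cela1*, and 0.31 for *Cela3b* in WT, 0.16, 0, and 0.11 for *Ctrb1*, *Cela2a*, and *Cela3b* in cKO, -0.0312 and -0.0244 for *Ctrb1* and *Cela2a* between genotypes with saline, 0, -0.0515, -0.24, and -0.0189 for *Ctrb1*, *Ctrl*, *Cela1*, and *Cela3b* between genotypes with FAEE-SAP, and -0.14, -0.22, and -0.0657 for *Ctrl*, *Cela1*, and *Cela3b* in the interaction. Quantile normalization gives each rank 1 value, so the most abundant genes move only with their rank. Trimmed mean scaling left the 5 counts at 7, 0, 0, 5, and 0. With no filter, 2 genes were called in WT and 0 in cKO against WT with FAEE-SAP, and without the trend the latter was 1. In the interaction, 4 of the 6 genes tested were called with a minimum of 2 RPKM, which left *Cela3a* untested, 2 with a pseudocount of 1, and 5 at an unadjusted *P* under 0.05 with 2-fold. The causes were not tested. For settings other than the main fits and the deposited values, the share of all genes called was not computed. With geometric means the log2 difference of the chymotrypsin to elastase ratio was -0.0017 and that of the *Cela1* share 0.26. Leaving out 1 library leaves 1 in its group, so counts of calls are not given for such fits, in some of which calls were lost. Log2 changes between genotypes with saline were then -0.0174 to 0.46 for *Ctrc* and -0.55 to 0.64 for *Cela3a*. *Cela3a*, at 14 to 58 reads, is the gene that depth limits most.

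With replicate number as a block, the counts were 7, 0, 0, 5, and 0, as without the block. Deviations of same-numbered libraries correlated at -0.175 between WT groups, 0.450 between cKO groups, -0.395 with saline, and 0.313 with FAEE-SAP, so the number was not taken as a pairing. A crossed pairing that exchanges the WT saline numbers, added after the data were seen, called 7 genes in WT, 0 between genotypes with saline, and 1 in the interaction.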
